A study of Schizosaccharomyces pombe with 12 samples.

Results

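The very long genes of fission yeast (*Schizosaccharomyces pombe*) were taken from the deposited table as the gene rows with a Length, the summed exon length of the gene model, of 5000 bases or more. Of 4857 gene rows, 158 had such a Length, and 156 of these had at least 5 reads in at least 11 of the 12 libraries. They were compared with the other 4428 genes that passed the same read filter and with 780 of those, the 5 nearest to each long gene in mean CPM, the count scaled to library size. The 156 made up 3.4% of the 4584 genes tested and ran from 5015 to 15022 bases, with a median of 5654.5 bases against 1863 bases over all tested genes. The remaining pair of long rows, *fab1+* (a phosphatidylinositol phosphate kinase) and *dhd1+* (annotated as a dihydrodiol dehydrogenase), did not pass the read filter. *dhd1+* had 0 reads in every library with 99.98% of its exon bases also inside another row, and *fab1+* had 2 to 26 reads with 97.13% of its bases shared.

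RNA polymerase II has to copy a gene from end to end in one pass, so a longer gene presents more template bases at which a damaged base can stall the enzyme. Methyl methanesulfonate (MMS) methylates purine bases in DNA, and the cell removes such lesions by base excision and nucleotide excision repair, the latter also coupled to stalled transcription. Fission yeast genes are compact, with short introns, and the genes of giant proteins are among those with the longest messages: kinases of the phosphatidylinositol kinase-like family, glucan synthases, motor proteins, fatty acid synthase and scaffolds.

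The study asked how the transcriptome of a diploid differed from that of a haploid of the same background, with and without DNA damage. Messenger RNA was sequenced from 12 libraries, 3 in each of 4 groups, which were haploids without treatment (haploid NT) or with MMS, and diploids likewise. Both strains carried the mating type h- smt-0 and the auxotrophic alleles leu1-32, ura4-D18 and his3D-1, homozygous in the diploid, which was made by fusing protoplasts. At *ade6* the haploid carried ade6-M210 and the diploid ade6-M210/ade6-M216. Each culture grew at 32 °C in rich YES medium and was split, with 1 portion treated with 0.0075% MMS and the other left untreated, for 4 h in both cases. Equal cell numbers were harvested and ERCC spike-in RNA was added. Each ploidy was 1 strain. The RNA came from whole cultures, in which fewer cells of a type and less RNA per cell cannot be told apart.

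The libraries held 16288362 to 26493886 reads, of which spike-ins took 1.33% to 4.24%. *ura4* had 0 reads in all 12 libraries and *his3* had 1 to 10, as both are deleted in the strains. Of the genes that define the mating type, the M genes *mfm3* (439 to 648 reads) and *mam2* (3581 to 5743 reads) were present throughout, but the P gene *map2*, which encodes the P pheromone, also had 819 to 7800 reads, the highest in diploid MMS replicate 3. That library stood apart from the other diploid MMS libraries for the long genes as well, and haploid NT replicate 1 stood apart from the other haploid NT libraries. The part of these differences in the results was not tested. The main counts and medians of the long genes in the main test are also given as ranges over fits without 1 library. Those of length classes, subsets and role lists, and spike-in scaled results, are given with all 12 libraries only.

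Many of these gene models were long for reasons other than a long protein. The coding part reached 5000 bases in 68 of the 156 genes and was under 50% of the Length in 31. *sib1+*, the ferrichrome synthetase that makes the siderophore, was the longest at 15022 bases, followed by *mdn1+* (midasin, a ribosome assembly ATPase, 14362 bases), *dhc1+* (dynein heavy chain, 12946 bases), SPBPJ4664.02 (a cell surface glycoprotein, 12261 bases) and *tra2+* (a phosphatidylinositol kinase-like protein, 11390 bases). By contrast *alp41+*, a GTP-binding protein of tubulin folding, had 561 coding bases in a model of 5579. In 39 of the 156 genes, 20% or more of the exon bases were also covered by an exon of another row, and 22 of these 39 were among the 31 with the small coding share. How reads on shared bases were counted was not given. *prp17+* (93.96% shared) had 22 to 61 reads, and *fab1+* and *dhd1+* also had few or none. Length includes the shared bases, so counts and values per kb of such genes may be too low, which was not tested. Values of these genes, including the checkpoint kinase gene *rad3+* (65.58% shared) and the fork protection gene *swi1+* (83.26% shared), are uncertain. *tlh2+*, a RecQ type helicase gene of a subtelomeric family with near-identical copies, is uncertain for that reason. Most of the genes, 97 of 156, had 1 exon, and the largest number was 10. They lay on chromosomes I (78 genes), II (46) and III (32).

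Per kilobase the long genes were less abundant than the rest. The median was 32.1 CPM per kb, against 59.66 for the remaining genes, and single genes ran from 0.2644, for *prp17+*, to 232.9. Another row covered 93.96% of the exon bases of *prp17+*. Shared bases count in Length, so the values per kb of overlapped genes may be too low. In CPM, which counts a long message more often, the order was the other way, with a median of 190.3 against 114.8. The 5 most abundant per kb were the fatty acid synthase genes *fas2+* (233 CPM per kb) and *fas1+* (134), the septum glucan synthase gene *bgs4+* (141), the RNA polymerase II large subunit gene *rpb1+* (140.5) and the helicase gene *sen1+* (129).

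The sequences upstream of 4 long genes are shown because these genes passed the test in a comparison below and their deposited start lay within 60 bases of the start in the RefSeq annotation, which held for 14 of the 23 long genes called in any comparison. Each run is the 250 bases before the deposited start, read 5′ to 3′ on the strand of the gene from the RefSeq genome assembly ASM294v3. The pair with the smallest adjusted p in haploid MMS against haploid NT and the pair in diploid NT against haploid NT were taken, chosen after the values were seen. Capitals mark a forkhead motif (AAACAA or its complement), the only one of the 4 motifs given below that was found in them.
msc1 (chrI:1663347-1663596, minus strand): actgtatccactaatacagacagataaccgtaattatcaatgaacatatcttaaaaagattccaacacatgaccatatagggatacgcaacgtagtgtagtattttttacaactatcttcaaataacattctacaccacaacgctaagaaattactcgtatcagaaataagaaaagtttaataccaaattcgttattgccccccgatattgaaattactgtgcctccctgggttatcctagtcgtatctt
gsf2 (chrIII:966015-966264, minus strand): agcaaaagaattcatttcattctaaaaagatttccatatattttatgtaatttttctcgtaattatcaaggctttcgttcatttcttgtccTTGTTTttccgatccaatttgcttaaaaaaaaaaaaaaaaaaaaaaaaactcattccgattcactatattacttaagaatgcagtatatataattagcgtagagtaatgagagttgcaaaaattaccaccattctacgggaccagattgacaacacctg
gcn1 (chrI:2227379-2227628, minus strand): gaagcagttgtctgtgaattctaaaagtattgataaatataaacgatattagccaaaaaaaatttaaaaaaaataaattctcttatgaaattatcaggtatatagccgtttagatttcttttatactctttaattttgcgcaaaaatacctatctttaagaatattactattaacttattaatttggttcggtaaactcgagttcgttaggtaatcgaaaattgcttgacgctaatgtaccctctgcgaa
vps1301 (chrII:3798776-3799025, minus strand): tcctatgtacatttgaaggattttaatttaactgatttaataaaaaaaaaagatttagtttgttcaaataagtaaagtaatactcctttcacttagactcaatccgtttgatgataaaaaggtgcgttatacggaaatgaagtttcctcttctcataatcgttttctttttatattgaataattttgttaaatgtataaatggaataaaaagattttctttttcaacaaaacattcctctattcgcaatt
The motifs, searched on both strands, were ACGCGT (bound by MBF, the G1/S factor), TGACGT (Atf1 and Pcr1), TTAGTCA (Pap1) and AAACAA (forkhead factors). They occurred in 0.641%, 4.49%, 5.13% and 43.6% of the 156 long genes. Over the same window of all 4584 tested genes the shares were 2.29%, 4.23%, 4.1% and 46.3%.

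In haploids treated with MMS the long genes as a group stood slightly lower than in haploid NT, and few of them changed singly. The median log2FC was -0.12 (quartiles -0.25 and 0.03) with 110 of 156 genes below 0, against a median of -0.02 over all 4584 genes and 0.02 over the 780 genes nearest in CPM. At adjusted p below 0.05 (edgeR quasi-likelihood test, Benjamini-Hochberg adjustment over all tested genes), 0 long genes rose and 4 fell, which was 2.56% of them, where 3.58% of all genes rose and 2.29% fell. At an unadjusted p below 0.05, 5 were higher and 25 lower, where 12.7% and 9.6% of all genes were. Among the 780 remaining genes nearest in CPM per kb, 51 were higher and 118 lower at that limit. At adjusted p below 0.05, 2.69% of those 780 rose and 3.72% fell. Of those genes 63.8% lay below 0, where 70.5% of the long genes did. DESeq2 called 2 up and 14 down, where it called 7.24% of all genes up and 5.1% down. Leaving out 1 library moved the count of 4 that fell between 0, without haploid MMS replicate 2 or haploid NT replicate 2 or 3, and 12, without haploid NT replicate 1 or diploid MMS replicate 3. With the added condition of an absolute log2FC above 0.58, the definition of a DEG used here, 1 fell and 0 rose, where 1.64% of all genes rose and 1.07% fell. The share of genes past an absolute log2FC of 0.58, whatever the test, was 0.641% of the long genes and 5.82% of all genes. Scaled by the spike-ins, the median of all genes was -0.60 and that of the long genes -0.70, so the lower level of the long genes is given relative to a typical gene. In that scaling 0 long genes rose and 7 fell (4.49%), where 0.109% of all genes rose and 3.47% fell. Spike-ins took 1.9%, 3.71% and 3.4% of the reads in haploid NT replicates 1 to 3 and 3.78%, 4.24% and 4.14% in haploid MMS. The spike-in scaled values thus rest in part on haploid NT replicate 1, and this scaling was not repeated without it.

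Because each culture was divided into an NT and an MMS portion, the comparison was also made with the culture as a block. With this pairing 24 long genes fell and 4 rose in haploids, where 9.62% of all tested genes fell and 13.6% rose. The 24 were 15.4% of the long genes, and among the 780 genes nearest in CPM 7.44% fell. All 4 genes called without the block were among the 24. In CPM, every haploid MMS library was below every haploid NT library for 32 long genes (20.5%) and above for 7 (4.49%), where these held for 13.2% and 15.1% of all tested genes.

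The 4 genes that fell in haploid MMS without the block encode a cell wall enzyme, a chromatin protein, a flocculin and an RNA-binding protein. *bgs3+* (SPAC19B12.03, chromosome I:4882814-4889915), a catalytic subunit of 1,3-beta-glucan synthase, measured 1081, 1109 and 1099 CPM in haploid NT replicates 1 to 3 and 847, 783 and 835 CPM in haploid MMS. The groups did not overlap (log2FC -0.42 ± 0.093, adjusted p = 0.0292), and the call held in 7 of the 12 fits that left out 1 library. In diploids *bgs3+* measured 843, 1002 and 871 CPM in NT and 742, 802 and 738 CPM in MMS, again with no overlap, and it passed the test only with the culture as a block (log2FC -0.25 ± 0.093, adjusted p = 0.234 without it, adjusted p = 0.0461 with it).

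*msc1+* (SPAC343.11c, chromosome I:1658316-1663346), which encodes a subunit of the Swr1 chromatin remodelling complex, measured 225, 221 and 223 CPM in haploid NT and 189, 169 and 166 CPM in haploid MMS. Every MMS library was below every NT library (log2FC -0.35 ± 0.08, adjusted p = 0.0309; called in 7 of 12 fits without 1 library). *gsf2+* (SPCC1742.01, chromosome III:959199-966014), a cell surface flocculin, measured 62.9, 74.1 and 68 CPM in haploid NT and 50.3, 49 and 52.9 CPM in haploid MMS, also apart (log2FC -0.43 ± 0.11, adjusted p = 0.0471; called in 2 of 12). Its upstream window, printed above, held 1 forkhead motif and that of *msc1+* held none of the 4 motifs.

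*mug24+* (SPCC74.09, chromosome III:1917714-1922733), an RNA-binding protein gene with 1965 coding bases in a model of 5020, was the only long DEG of haploid MMS. It measured 18.6, 23.4 and 28.4 CPM in haploid NT and 10.6, 13.7 and 17.5 CPM in haploid MMS, with the groups just apart (log2FC -0.75 ± 0.20, adjusted p = 0.0471; called in 3 of 12). Diploids showed the same order, with 25.8, 30.8 and 29.3 CPM in NT and 18.3, 21.9 and 18 CPM in MMS (log2FC -0.56 ± 0.19, adjusted p = 0.191 without the block and adjusted p = 0.00936 with it).

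**Figure D1:**
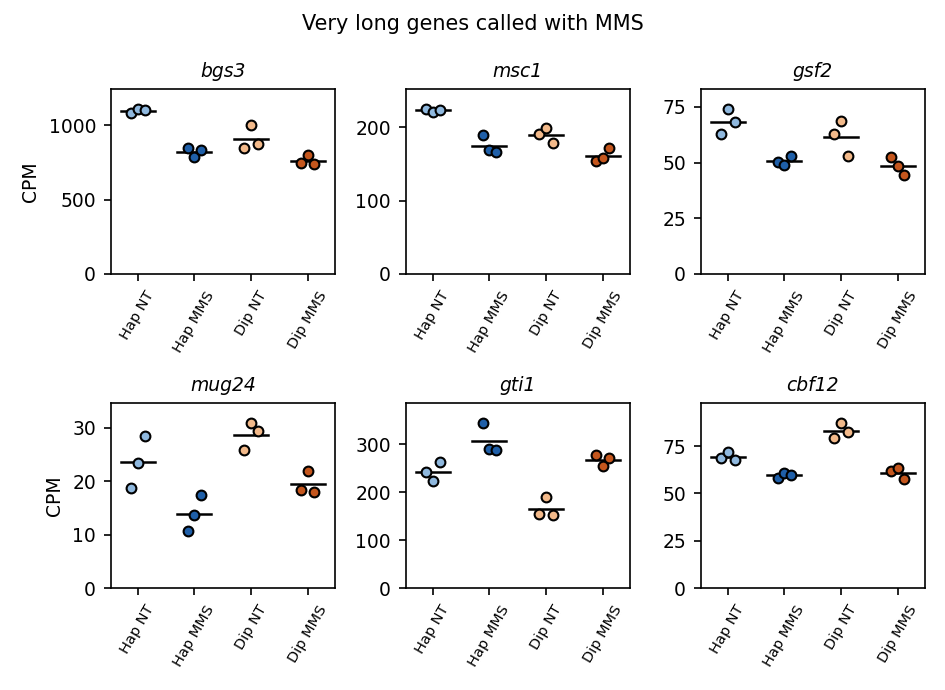
CPM of the 6 long genes called at adjusted p below 0.05 in either MMS comparison, by group; each point is 1 library and each bar the mean of 3. *bgs3*, *msc1*, *gsf2* and *mug24* are lower in every haploid MMS library than in every haploid NT library, *gti1* is higher in every diploid MMS library than in every diploid NT library, and *cbf12* is lower.

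In diploids the long genes as a group also lay a little below the rest after MMS. The median log2FC was -0.05 (quartiles -0.18 and 0.07) with 94 of 156 genes below 0, against 0.01 over all genes and 0.02 over the genes nearest in CPM. 1 long gene rose and 1 fell at adjusted p below 0.05 (edgeR), or 0.641% each way, where 0.916% of all genes rose and 0.633% fell. The gene that rose was also a DEG, where 0.589% of all genes were DEGs upward and 0.349% downward. With the culture as a block 16 fell and 6 rose, where 4.47% of all genes fell and 6.52% rose. At an unadjusted p below 0.05, 13 were higher and 22 lower (8.73% and 4.91% of all genes), and DESeq2 called 4 up and 5 down (3.6% and 1.7% of all genes). In all, 10 genes fell in both ploidies with the block, or 6.41% of the long genes, where 2.73% of all tested genes and 2.44% of those nearest in CPM did. Every diploid MMS library was below every diploid NT library in CPM for 32 long genes (20.5%) and above for 22 (14.1%), where these held for 10.4% and 13.3% of all genes. Scaled by the spike-ins 0 long genes rose and 0 fell, where 0.0436% and 0.0218% of all genes did. Without diploid MMS replicate 3, which stood apart, 7 fell and 2 rose and the median was -0.14. The gene that fell was not called without any of the other diploid libraries, and the gene that rose was not called without diploid MMS replicate 1 or diploid NT replicate 1 or 3.

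*gti1+* (SPAC1751.01c, chromosome I:377844-384751), which encodes an inducer of gluconate transport, measured 154, 189 and 152 CPM in diploid NT and 277, 255 and 272 CPM in diploid MMS. It was the long gene that rose, with no overlap of the groups (log2FC 0.70 ± 0.11, adjusted p = 0.016; called in 9 of 12 fits without 1 library). In haploids it measured 242, 224 and 262 CPM in NT and 345, 291 and 289 CPM in MMS, also without overlap. There it did not pass the edgeR test without the block (log2FC 0.34 ± 0.11, adjusted p = 0.0914) but passed with it (adjusted p = 0.0428) and by DESeq2 (adjusted p = 0.0417). Scaled by the spike-ins, its log2FC in haploids was -0.247, beside a median of -0.604 over all genes. The coding part of *gti1+* is 2163 bases of a model of 6908, so most of the counted length lies outside the coding part.

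*cbf12+* (SPCC1223.13, chromosome III:1870438-1875842), a transcription factor of the CBF1/Su(H)/LAG-1 family that regulates cell adhesion, was the long gene that fell in diploids. It measured 79.3, 87.2 and 82.4 CPM in diploid NT and 61.7, 63.3 and 57.8 CPM in diploid MMS (log2FC -0.45 ± 0.078, adjusted p = 0.021; called in 7 of 12), with the groups apart. Haploid values were 68.9, 71.7 and 67.8 CPM in NT and 58.1, 61 and 59.7 CPM in MMS (log2FC -0.22 ± 0.077, adjusted p = 0.117, and adjusted p = 0.0312 by DESeq2). Another row covered 22.68% of its exon bases.

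Across the 156 genes the haploid and diploid responses to MMS, which share no library, went together with Pearson r = 0.555, and across all 4584 genes with r = 0.652. Genes are not independent replicates, and each pair of values belongs to 1 gene of 1 length and base composition. Of the long genes, 75 lay below 0 in both ploidies and 27 above 0 in both. The former were 48.1% of the long genes, where 35.5% of all tested genes lay below 0 in both.

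**Figure D2:**
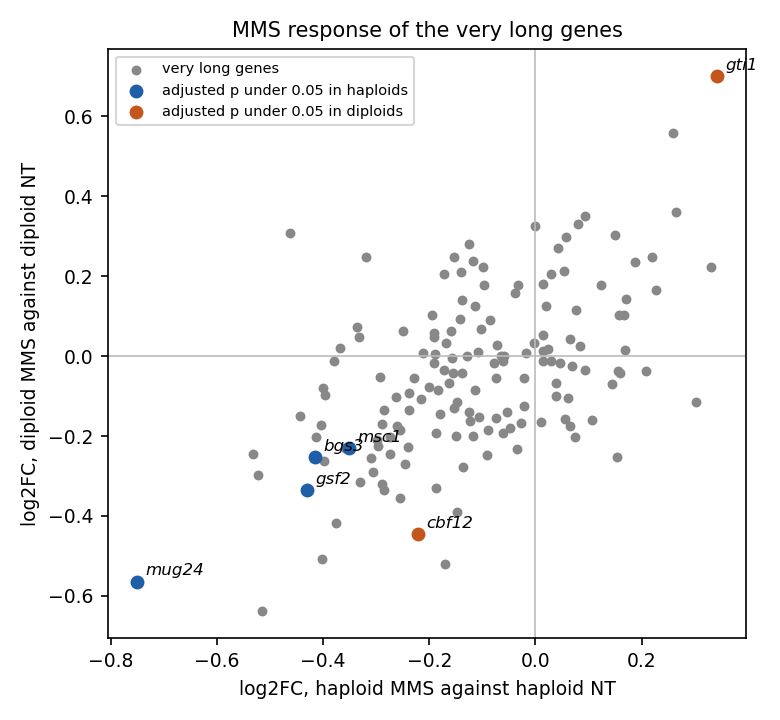
log2FC with MMS in haploids (x axis) and in diploids (y axis) for the 156 long genes; each point is a gene, and the coloured, named points passed adjusted p below 0.05 in 1 of the comparisons. The lower left holds 75 genes, below 0 on both axes, and the upper right 27, and *mug24* and *gti1* lie furthest out among the called genes.

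The 10 long genes that fell in both ploidies with the culture as a block came from several roles. Among them were *mug24+*, the PPR repeat protein gene *ppr5+*, the kinase gene *ppk1+*, the histone chaperone gene *hip3+*, the helicase gene *ucp12+*, the TORC2 kinase gene *tor1+*, the glucan synthase genes *bgs3+* and *bgs4+*, and the calcium ATPase gene *pmc1+*. In that fit *ppk1+* had a log2FC of -0.50 in haploids and -0.65 in diploids, *ppr5+* -0.39 and -0.50, *hip3+* -0.33 and -0.32, and *bgs4+* -0.25 and -0.36. *tor1+*, at -0.24 and -0.27, measured 204, 219.5 and 243 CPM in haploid NT and 179.9, 184 and 198 CPM in haploid MMS, and 191, 214 and 202 CPM in diploid NT and 161, 169.6 and 173 CPM in diploid MMS. MMS and NT did not overlap for *tor1+* in either ploidy.

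The median response to MMS fell step by step with gene length in haploids. From below 1000 bases upward in steps of 1000, the 6 length classes held 630, 1925, 1152, 510, 211 and 156 genes, and their median log2FC was 0.04, 0.03, -0.04, -0.08, -0.09 and -0.12. In diploids the medians were 0.06, 0.04, -0.0007, -0.03, -0.06 and -0.05, so the class from 4000 to below 5000 bases was as low as the longest one. At adjusted p below 0.05 (edgeR), 0.794%, 1.19%, 3.47%, 3.53%, 7.11% and 2.56% of these classes fell in haploids. In diploids 0.159%, 0.416%, 0.868%, 0.784%, 2.37% and 0.641% fell. The largest share was thus in the class from 4000 to below 5000 bases. The genes that rose numbered 33, 99, 29, 1, 2 and 0 in haploids and 4, 24, 9, 4, 0 and 1 in diploids. Mean abundance rose over the same classes, from a median of 87.29 CPM to 190.3 CPM. Against the genes nearest in CPM the long genes lay lower by a difference of -0.14 in haploids. Against the genes nearest in CPM per kb, whose median was -0.08, this shrank to -0.04.

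**Figure D3:**
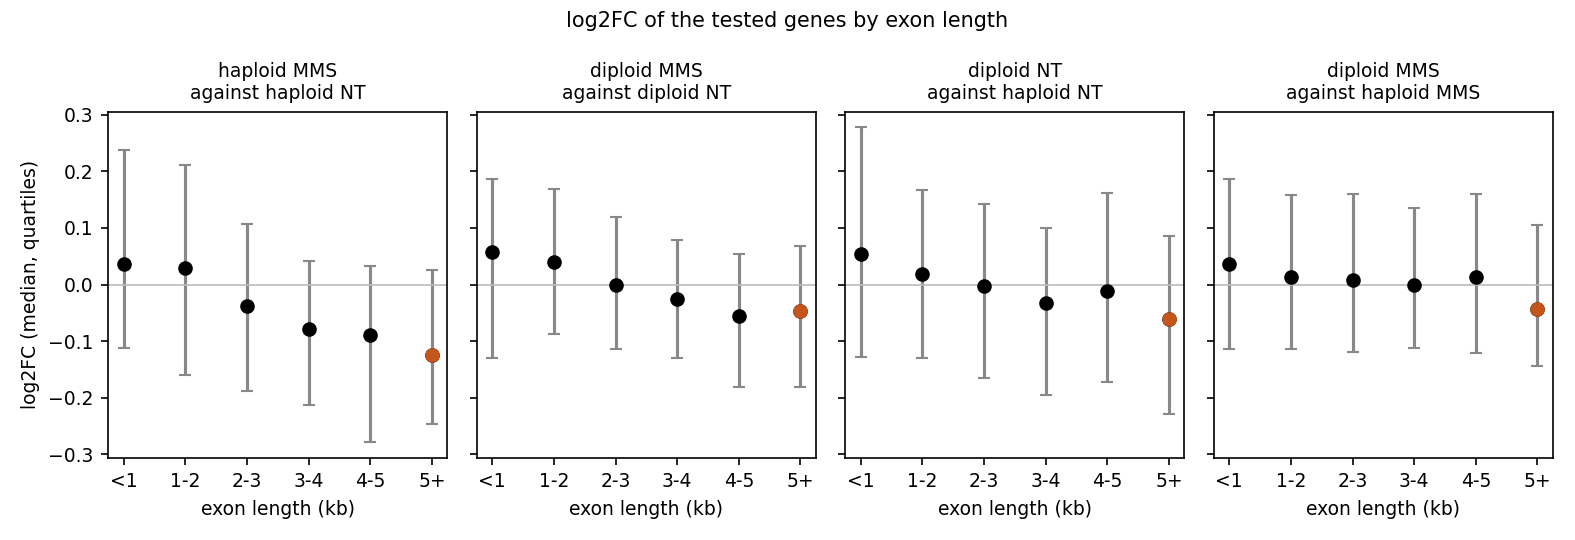
Median log2FC (points) with the lower and upper quartile (bars) of the tested genes in 6 classes of exon length, for the 4 comparisons of 2 groups; the last class, in orange, holds the 156 long genes. In haploid MMS against haploid NT the medians fall from 0.04 to -0.12, while the quartile bars of neighbouring classes overlap widely.

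Medians were close for models that were long in different ways. The 68 genes with 5000 or more coding bases had a median log2FC of -0.12 in haploid MMS and the 31 genes with a coding share under 50% had -0.09, and in diploid MMS the medians were -0.05 and -0.07. The 117 genes with under 20% of their bases shared had -0.12 and -0.05. By abundance per kb, the 52 lowest of the long genes had -0.17 in haploid MMS and -0.14 in diploid MMS, and the 52 highest had -0.08 and -0.01. By chromosome the haploid medians were -0.12 on I, -0.12 on II and -0.15 on III.

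Library by library, the long genes took 4.25%, 4.64% and 4.9% of the counts of tested genes in haploid NT replicates 1 to 3 and 4.16%, 4.13% and 4.21% in haploid MMS. The haploid groups were thus apart by a small gap, with haploid NT replicate 1 close to the MMS libraries. Diploid NT libraries had 3.85%, 4.13% and 4.01% and diploid MMS libraries 3.77%, 3.73% and 4.34%, which overlapped, with diploid MMS replicate 3 the highest of all 6. The means of haploids were 4.6% ± 0.327 in NT and 4.17% ± 0.0404 in MMS, and those of diploids 4.0% ± 0.14 in NT and 3.95% ± 0.341 in MMS (SD, n = 3 each). The median of the long genes relative to each gene's own mean ran from -0.0159 to 0.158 (log2) within haploid NT alone and from -0.0657 to -0.0177 in haploid MMS. Taken within each culture, the median over the long genes of the MMS portion minus the NT portion was -0.0265, -0.155 and -0.182 (log2) in haploid cultures 1 to 3, where the genes nearest in CPM had 0.0251, 0.00471 and 0.0521. In diploid cultures 1 to 3 it was -0.0895, -0.149 and 0.0521, where the genes nearest in CPM had 0.0106, 0.0286 and 0.00842. The long genes thus lay below 0 in the 3 haploid cultures and in diploid cultures 1 and 2, and above 0 in diploid culture 3, which gave diploid MMS replicate 3.

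**Figure D4:**
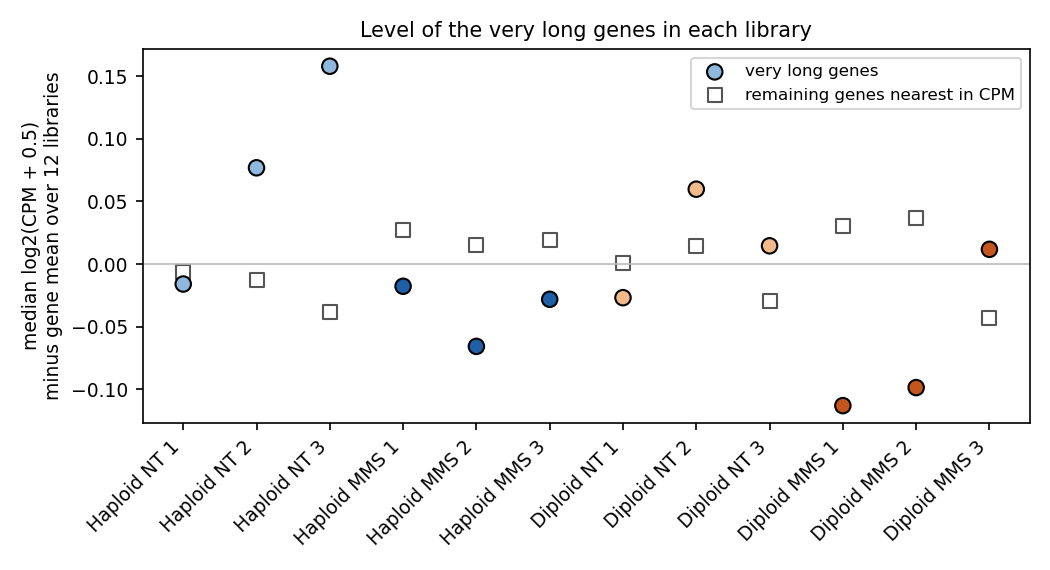
Median over genes of log2(CPM + 0.5) minus the gene's mean over the 12 libraries, for the 156 long genes (circles, coloured by group) and the 780 remaining genes nearest in CPM (squares). The circles of haploid NT spread from -0.0159 to 0.158, and diploid MMS replicate 3, at 0.0118, lies above the other diploid MMS libraries at -0.113 and -0.0986.

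Between the untreated ploidies the long genes that passed the test were all lower in diploids. This comparison and that of haploid MMS share the 3 haploid NT libraries, so their results are not independent. In haploid NT the long genes took a mean of 4.6% of counts, against 4.17% in haploid MMS, 4.0% in diploid NT and 3.95% in diploid MMS. In diploid NT against haploid NT, 18 long genes fell and 0 rose at adjusted p below 0.05 (edgeR), or 11.5% and 0%, where 3.82% of all genes fell and 1.88% rose; 3.33% of the genes nearest in CPM fell. At an unadjusted p below 0.05, 3 were higher and 32 lower (9.42% and 12% of all genes), and DESeq2 called 2 up and 25 down (4.04% and 7.5%). As DEGs, 10 fell and 0 rose, where 1.79% of all genes fell and 1.11% rose. In all 18 genes the groups did not overlap, as in all 175 genes called down over the whole table, and counted without the test every diploid NT library was below every haploid NT library for 36 long genes (23.1%), where this held for 14.7% of all genes. The median over the 156 genes was -0.06, against 0.01 over all genes. Leaving out 1 library moved the count of 18 between 2, without diploid NT replicate 1, and 31, without haploid NT replicate 1; it was 5 or 6 without any other library of these groups.

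These values are shares of the mRNA. Scaled by the spike-ins instead, the median of all genes was 0.84 higher in diploid NT than in haploid NT, all 18 genes had a log2FC above 0 (0.09 to 0.54), and 121 long genes rose and 0 fell. These were 77.6% of the long genes, where 78.8% of all tested genes rose and 0.0218% fell. Haploid NT replicate 1 took 1.9% of its reads from spike-ins where the other haploid NT libraries took 3.71% and 3.4%. The fall of the 18 genes was thus relative to the other mRNAs of the diploid.

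Of these 18 genes, 12 had 5000 or more coding bases, 1 had a coding share under 50% and 2 shared 20% or more of their bases with another row. Among the 68 genes with long coding parts 17.6% fell, and among the 31 with small coding shares 3.23% did. By abundance per kb, 3, 8 and 7 of the 18 lay among the 52 lowest, 52 middle and 52 highest of the long genes.

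*tra1+* (SPBP16F5.03c, chromosome II:1894350-1905532), the scaffold subunit of the SAGA acetyltransferase complex, had the smallest adjusted p. It measured 489, 586 and 581 CPM in haploid NT and 309, 339.5 and 328 CPM in diploid NT (552 ± 54.7 against 326 ± 15.4, SD, n = 3 each). The lowest haploid library was well above the highest diploid one (log2FC -0.76 ± 0.10, adjusted p = 0.00297), and the call held in 12 of the 12 fits without 1 library. With MMS it measured 572, 489.6 and 487 CPM in haploids and 352, 414 and 375 CPM in diploids, again apart. There it did not pass the edgeR test (log2FC -0.44 ± 0.10, adjusted p = 0.0836) but passed by DESeq2 (adjusted p = 0.00575).

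Glucan synthases followed. *mok11+* (SPAC1527.01, chromosome I:4375301-4382775), an alpha-1,3-glucan synthase gene, measured 365, 360.1 and 343 CPM in haploid NT and 199, 226 and 216 CPM in diploid NT, with every diploid value lower (log2FC -0.73 ± 0.11, adjusted p = 0.00386; called in 12 of 12). The spore wall glucan synthase genes *mok12+* (log2FC -0.79 ± 0.19, adjusted p = 0.0318; called in 7 of 12) and *bgs2+* (log2FC -0.30 ± 0.069, adjusted p = 0.0281; called in 6 of 12) fell too. *mok12+* measured 237, 395 and 357 CPM in haploid NT and 196, 200 and 174 CPM in diploid NT, so that its haploid replicate 1 lay near the diploid values.

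Genes of nutrient signalling were also among the 18. *gcn1+* (SPAC18G6.05c, chromosome I:2219135-2227378), which encodes the activator of the eIF2 alpha kinase Gcn2, measured 712, 747 and 714 CPM in haploid NT and 476, 535 and 520.2 CPM in diploid NT (log2FC -0.51 ± 0.092, adjusted p = 0.00954; called in 11 of 12). *tor2+* (SPBC216.07c, chromosome II:915085-922447), the kinase of TOR complex 1, measured 396, 402 and 413 CPM and 277, 304 and 304 CPM (log2FC -0.45 ± 0.087, adjusted p = 0.0121; called in 11 of 12). Both genes were apart between the ploidies, and the upstream window of *gcn1+* printed above held none of the 4 motifs. *dhx29+*, annotated as an RNA/DNA helicase, fell as well (log2FC -0.68 ± 0.14, adjusted p = 0.0136).

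The remaining genes of the 18 serve membranes, chromosomes and RNA. *vps1301+* (SPBC21C3.01c, chromosome II:3788890-3798775), a lipid transfer protein of the Vps13 family, measured 256, 347 and 339.5 CPM in haploid NT and 201, 211 and 203 CPM in diploid NT (log2FC -0.62 ± 0.12, adjusted p = 0.0134; called in 7 of 12). Haploid replicate 1 was the lowest of its group, as it was for *dhx29+*, *mok12+* and *brr2+*. The U5 snRNP helicase gene *brr2+* measured 496, 853 and 779.9 CPM and 448, 483 and 459.6 CPM (log2FC -0.61 ± 0.16, adjusted p = 0.048; called in 2 of 12). SPAC57A7.05, which encodes an uncharacterized protein, had a log2FC -0.61 ± 0.11, adjusted p = 0.00974 (called in 10 of 12), and *gti1+* had a log2FC -0.56 ± 0.11, adjusted p = 0.0134 (called in 9 of 12). The genes *bbc1+* (an SH3 domain protein), *lvs1+* (a beige domain protein), *cta5+* (a P-type ATPase) and *sen1+* (a helicase) fell with log2FC from -0.64 to -0.33. Of these, *lvs1+* and *cta5+* were each called in 7 of 12 fits without 1 library. The genes *cut1+*, *tel1+* and *cut4+* are given with the other genes of DNA metabolism.

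**Figure D5:**
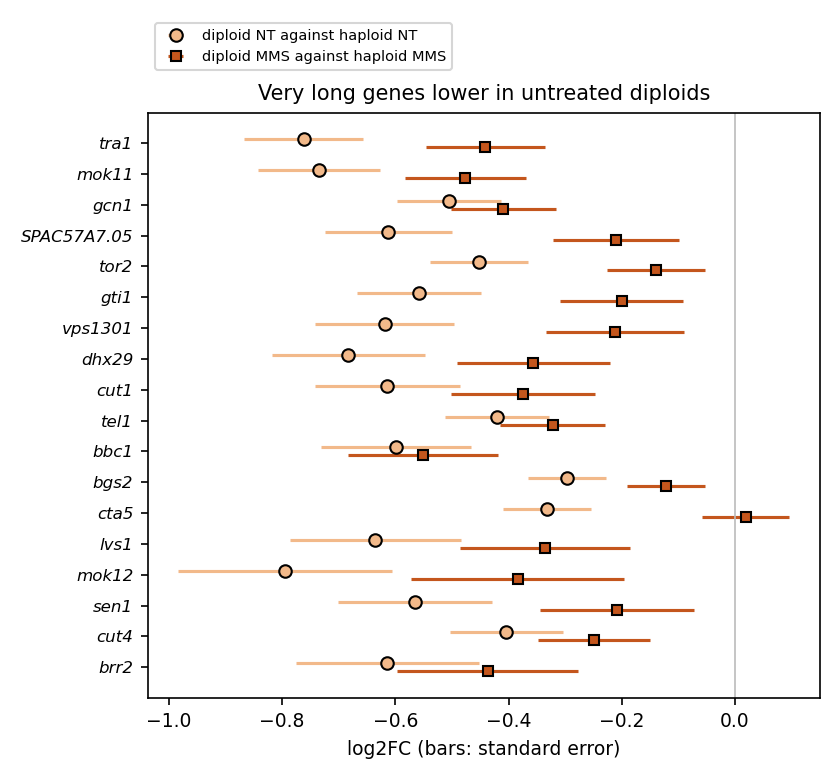
log2FC with its standard error for the 18 long genes that fell in diploid NT against haploid NT (circles) and the same genes in diploid MMS against haploid MMS (squares). All circles lie between -0.79 and -0.30, and the squares lie between -0.55 and 0.02, with 17 of 18 below 0.

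With MMS in both, 0 long genes rose and 0 fell in diploids against haploids at adjusted p below 0.05 (edgeR), where 0.48% of all genes rose and 0.349% fell. At an unadjusted p below 0.05, 7 were higher and 20 lower (7.13% and 7.26% of all genes), and DESeq2 called 1 up and 7 down (1.81% and 2.49%). As DEGs 0 rose and 0 fell, where 0.305% and 0.24% of all genes did. Without haploid NT replicate 1, 5 fell. The median was -0.04, against 0.01 over all genes. The 18 genes called without MMS had a median log2FC of -0.61 there and -0.33 with MMS. These 2 comparisons share no library, but the genes were picked on the first, so the smaller value in the second is a description. Scaled by the spike-ins, all 156 long genes rose, as did 99.3% of all tested genes, with the median of all genes at 1.44.

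Whether the response to MMS differed between the ploidies was tested by the interaction, in which 0 long genes and 0 of all 4584 genes passed in either direction (edgeR, adjusted p below 0.05; 0.0% of all genes each way). At an unadjusted p below 0.05, 5 long genes were higher and 1 was lower in diploids (2.07% and 1.31% of all genes), and DESeq2 called 0 of the 156 and, of all genes, 0.0218% downward. The median interaction was 0.07 (log2), against 0.02 over all genes and -0.0006 over the genes nearest in CPM. Over the genes nearest in CPM per kb it was 0.06, close to that of the long genes. Leaving out 1 library moved the median of the long genes between -0.00145 and 0.143. The single values ran from -0.42 to 0.77 with a median standard error of 0.178.

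Of the 156 long genes, 95 belonged to at least 1 of 9 role lists. For the list counts with the block, 15.4% of the long genes fell and 2.56% rose in haploids, and 10.3% fell and 3.85% rose in diploids. Of all tested genes 9.62% fell and 13.6% rose in haploids in that fit, and 4.47% fell and 6.52% rose in diploids. The 10 genes of DNA replication, repair, checkpoint and segregation did not pass the test in either MMS comparison, with 0 up and 0 down in each by edgeR without the block and by DESeq2. With the block 0 passed in haploids and 2 rose in diploids. At an unadjusted p below 0.05, 0 of the 10 were higher or lower in haploids, and 2 were higher and 1 lower in diploids. Their medians were -0.03 in haploid MMS and -0.05 in diploid MMS. The ATR checkpoint kinase gene *rad3+* had log2FC -0.23 ± 0.18 and -0.054 ± 0.18 (SE) in haploids and diploids, and the ATM kinase gene *tel1+* -0.14 ± 0.092 and -0.041 ± 0.092. The replicative polymerase genes *pol1+* (polymerase alpha) and *cdc20+* (polymerase epsilon) had 0.17 ± 0.09 and -0.28 ± 0.24 in haploids and 0.14 ± 0.09 and -0.14 ± 0.24 in diploids. The remaining values in haploids and diploids were 0.055 ± 0.089 and -0.16 ± 0.089 for *top2+* (topoisomerase II), -0.091 ± 0.094 and -0.25 ± 0.095 for *fml1+* (a FANCM-family helicase), -0.072 ± 0.11 and 0.028 ± 0.11 for *mis4+* (the cohesin loader), 0.01 ± 0.22 and -0.16 ± 0.21 for *swi1+*, 0.058 ± 0.13 and 0.30 ± 0.13 for *cut1+* (separase), and 0.15 ± 0.10 and 0.30 ± 0.10 for *cut4+* (a scaffold of the anaphase-promoting complex). The pair that rose in diploids with the block was *cut1+* (adjusted p = 0.0238) and *cut4+* (adjusted p = 0.0157).

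Between the untreated ploidies 3 of the 10 fell, where 11.5% of the long genes and 3.82% of all genes fell. They were *cut1+*, *tel1+* and *cut4+* (log2FC -0.40 ± 0.10, adjusted p = 0.0375). *cut1+* measured 275, 375 and 359 CPM in haploid NT and 206, 243 and 209.9 CPM in diploid NT (log2FC -0.61 ± 0.13, adjusted p = 0.017; called in 8 of 12 fits without 1 library). *tel1+* measured 101, 117 and 116 CPM and 83.2, 85.6 and 81.6 CPM (log2FC -0.42 ± 0.092, adjusted p = 0.0234; called in 7 of 12). Both were apart, with haploid replicate 1 the closest to the diploid values.

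Of the 9 long genes for glucan synthesis and the cell surface, 8 lay below 0 in haploid MMS with a median of -0.24. *bgs3+* and *gsf2+* fell, and with the block 5 fell and 0 rose, where 15.4% of the long genes and 9.62% of all genes fell. In diploid MMS the median was -0.16, with 0 up and 0 down by edgeR (1 higher and 4 lower at an unadjusted p below 0.05, 1 up and 1 down by DESeq2, 1 up and 2 down with the block). *bgs4+*, which builds the septum, measured 1276, 1204 and 1222 CPM in haploid NT and 1045, 1017 and 1041 CPM in haploid MMS (log2FC -0.26 ± 0.10, adjusted p = 0.156), and 1158, 1330.0 and 1167 CPM in diploid NT and 976, 1021 and 859 CPM in diploid MMS (log2FC -0.36 ± 0.10, adjusted p = 0.114). Both pairs of groups were apart although neither passed the edgeR test without the block. By DESeq2, also without the block, both passed (adjusted p = 0.024 in haploids and 0.00192 in diploids). In diploid NT against haploid NT 3 of these 9 genes fell, beside the 11.5% of long genes given above, and all 9 lay below 0.

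The 26 genes of motors, cytoskeleton, nuclear pore and membrane traffic had a median of -0.14 in haploid MMS, with 21 below 0, and -0.04 in diploid MMS. None passed in either by edgeR without the block or by DESeq2 (0 higher and 2 lower at an unadjusted p below 0.05 in haploids, 1 and 2 in diploids), and with the block 2 fell in haploids, 1 of them *myo2+* (adjusted p = 0.042). *trs130+* (a TRAPP subunit, 38.67% of bases shared) had -0.29 ± 0.11 and -0.32 ± 0.11, *for3+* (a formin) -0.30 ± 0.12 and -0.21 ± 0.12, and *myo2+* (myosin II) -0.29 ± 0.15 and -0.17 ± 0.15. The 16 genes of TOR, lipid kinase and stress signalling had medians of -0.13 in both, with 4 down and 1 up in haploids and 1 down and 1 up in diploids with the block. In that fit 15.4% of the long genes and 9.62% of all genes fell in haploids, and 10.3% and 4.47% in diploids. The 13 of transcription and chromatin had -0.16 and -0.01, with *msc1+* down in haploids, 2 down in haploids and 1 in diploids with the block, and *hip3+* at -0.33 ± 0.095 and -0.32 ± 0.095. *rpb1+* was at 0.16 ± 0.093 and 0.10 ± 0.093.

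Of the 9 lists, 2 had a median above 0 in haploid MMS. The 6 genes of ubiquitin ligases and protein turnover all lay above 0 with a median of 0.06, and none passed the test with or without the block (0 at an unadjusted p below 0.05). *ubr1+* and *ptr1+* (ubiquitin ligases) were at 0.053 ± 0.073 and 0.062 ± 0.076. The 6 of fatty acid, amino acid, nucleotide and siderophore synthesis had a median of 0.06 in haploid MMS and -0.18 in diploid MMS, where all 6 lay below 0. *fas2+* measured 1033, 1631 and 1653 CPM in haploid NT and 1000, 1219 and 1265 CPM in haploid MMS, so the groups overlapped (log2FC -0.31 ± 0.19, adjusted p = 0.356). *glt1+*, the glutamate synthase gene, had a log2FC -0.15 ± 0.14, adjusted p = 0.586 in haploids and a log2FC -0.39 ± 0.14, adjusted p = 0.237 in diploids, where it fell with the block (adjusted p = 0.00811). The 5 transporters had -0.14 and -0.02, with the calcium channel gene *cch1+* at -0.40 ± 0.12 and -0.17 ± 0.12. With the block 2 of the 5 fell in haploids, *cch1+* among them, and 1 in diploids, where 15.4% and 10.3% of the long genes fell. The 9 genes of RNA processing, ribosome synthesis and translation had -0.11 and -0.04, with *ski3+* (a Ski complex subunit) at -0.41 ± 0.24 and -0.20 ± 0.24, and 1 rose in each ploidy with the block.

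The machinery that copies long genes and the enzymes that remove alkylated bases were examined through lists of genes of any length. Of 30 tested genes in the elongation list, 2 rose and 0 fell in haploid MMS and 0 passed in diploid MMS (4 higher and 0 lower at an unadjusted p below 0.05), where the list medians were 0.0045 and 0.03. DESeq2 called 2 up and 1 down in haploids and 1 up in diploids. Of all genes, edgeR called 3.58% up and 2.29% down in haploids and 0.916% and 0.633% in diploids. The shares by DESeq2 were 7.24% and 5.1% in haploids and 3.6% and 1.7% in diploids. With the block 4 rose and 1 fell in haploids and 2 rose and 0 fell in diploids, beside 13.6% of all genes up and 9.62% down in haploids and 6.52% up and 4.47% down in diploids in that fit. Those that rose without the block were *eaf1* (log2FC 0.62 ± 0.13, adjusted p = 0.0219), a partner of the elongation factor Ell1, and *prf1* (log2FC 0.58 ± 0.14, adjusted p = 0.0409), which works with the Paf1 complex, and both also rose in diploids with it (adjusted p = 0.0196 and 0.0178). In this species the symbol *elf1* in that list names an ATPase. The symbol *rtf1* there names a gene other than the elongation factor called Rtf1 in other species. Neither gene passed the test without the block, while *elf1* fell in haploids with it (adjusted p = 0.0454).

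Of 36 tested genes in the list of base and nucleotide excision repair, 2 rose and 1 fell in haploid MMS, and 2 rose and 0 fell in diploid MMS (by DESeq2 2 up and 4 down, and 2 up and 0 down). Of all genes, edgeR called 3.58% up and 2.29% down in haploids and 0.916% and 0.633% in diploids. The shares by DESeq2 were 7.24% and 5.1% in haploids and 3.6% and 1.7% in diploids. With the block 3 rose and 7 fell in haploids and 2 rose and 2 fell in diploids. In that fit 13.6% of all genes rose and 9.62% fell in haploids, and 6.52% rose and 4.47% fell in diploids. *ctp1*, a DNA end resection factor, rose in haploids (log2FC 0.71 ± 0.09, adjusted p = 0.00182) and in diploids (log2FC 0.63 ± 0.09, adjusted p = 0.00902). *cdt2*, the substrate adaptor of a ubiquitin ligase active in S phase and after damage, rose as well (log2FC 1.38 ± 0.27, adjusted p = 0.0164 in haploids and log2FC 1.26 ± 0.27, adjusted p = 0.0455 in diploids). *tfb4*, a TFIIH subunit, fell in haploids (log2FC -0.46 ± 0.11, adjusted p = 0.0381). The list median was -0.13 in haploid MMS, where 26 of 36 lay below 0, and 0.0022 in diploid MMS. Neither *ctp1* nor *cdt2*, the only genes of the list that rose by edgeR without the block, excises bases. The study had already listed both among MBF targets raised by MMS in haploids, from these same libraries. Of the genes called only with the block, *uve1*, an endonuclease of UV-damaged DNA, fell in both ploidies (adjusted p = 0.00807 in haploids and 0.0257 in diploids), as did *atl1*, an alkyltransferase-like protein gene (0.0269 and 0.033).

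The limit of 5000 bases has genes close to it on either side. The 20 long genes up to 100 bases above the limit had a median log2FC of -0.17 in haploid MMS and -0.06 in diploid MMS, from *zfs1+* and *iml1+* (5015 bases each) to *spo7+* (5093 bases). The 14 genes up to 100 bases below it had -0.11 and -0.03. Just inside, *zfs1+* (a zinc finger protein) was at -0.09 ± 0.10 and -0.18 ± 0.10 and *iml1+* (a subunit of the GATOR1 complex) at -0.27 ± 0.081 and -0.20 ± 0.081. Just outside, SPAC23D3.13c (4973 bases) was at -0.13 and -0.06, and *mcm5* (4968 bases), a helicase subunit of replication, at 0.0010 and 0.37.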

How the data were processed

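The authors deposited 1 table of raw counts per gene, made, per the submitters' processing notes and the methods, with STAR 2.7.0e on the PomBase reference and featureCounts. Build, annotation release, strand setting and featureCounts version: not given in the sources used here. Of the introns in that table, 98.41% were also in the RefSeq annotation (ASM294v3), which gave symbols, products and coding lengths, matched by systematic name for 4855 of 4857 genes. Length is the summed exon length per row. Genes reaching 5 reads in 11 or more of the 12 libraries, less 2 that the study set aside, were tested with the edgeR quasi-likelihood test (edgeR 4.0.16, R 4.3.3), with TMM scaling, over all 4584 such genes and all 4 groups together. Fold changes are log2FC ± SE, and CPM uses TMM-scaled library sizes. DESeq2 (1.42.0), RLE factors, 60 spike-ins, other filters, the culture as block, a length trend removed per library and leaving out each library were alternatives.

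Samples were grouped by their titles. NT and MMS libraries were paired by the replicate number in the titles, which do not name the culture. Residuals of same-numbered libraries correlated at 0.7297, 0.6805 and 0.5355 in haploids and 0.5915, 0.4528 and 0.5968 in diploids. Those of differently numbered libraries ran from -0.7164 to 0.6115 in haploids and from -0.5809 to 0.2329 in diploids. The 0.6115 was for haploid NT replicate 2 with haploid MMS replicate 3, so the residuals do not tell haploid cultures 2 and 3 apart. The methods call the 3 libraries of a group biological replicates without saying how the cultures were started, so p-values measure the spread between these cultures of 1 strain. The median long gene had 3036 to 5046 reads in a library. The members, lists, and tests were chosen with earlier results of these data known. Named genes were the 5 longest, the 5 most abundant per kb, called genes whose groups did not overlap (up to 8 per direction and comparison), all members of the DNA list, those near the length limit, and up to 4 per role list by smallest adjusted p with MMS; the genes called only with the block, *prp17+*, *peg1+*, *ams1+*, *alp41+*, *tlh2+*, *mok12+*, *bgs2+*, *bbc1+*, *lvs1+* and the 4 printed windows were named after their values were seen. No member was called by fold and adjusted p in both MMS comparisons, the rule set for printing promoters. The results of 1 motif and 1 named gene are not reported here.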

Additional observations from a re-analysis of the deposited data

How the results depend on the processing

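The 48 results, 28 summary values and 20 named genes, were recomputed under each alternative that applied to them; the culture block could be fitted for 22 and not for the 26 between ploidies, which share no culture. Summary values moved 101 times and 467 times did not, counts being taken as moved past 1.5 times and medians past 1 SD between libraries (0.0607, or 0.0797 for the difference from the CPM-nearest genes). Named genes kept their call 247 times, lost it 105 times and changed sign 14 times. All 14 sign changes came from spike-in scaling of diploid NT against haploid NT, where the log2FC was 0.34 for *sen1+*, 0.277 for *gti1+*, 0.107 for *tra1+*, 0.091 for *mok11+*, 0.332 for *gcn1+*, 0.284 for SPAC57A7.05, 0.385 for *tor2+*, 0.275 for *vps1301+*, 0.215 for *dhx29+*, 0.447 for *tel1+*, 0.28 for *cut1+*, 0.475 for *cut4+*, 0.319 for *brr2+* and 0.52 for *cta5+*, beside a median of 0.844 over all genes. With MMS, *msc1+* in haploids and *gti1+* and *cbf12+* in diploids kept their direction but lost their call under that scaling. With DESeq2 the counts of long genes up and down were 2 and 14 in haploid MMS, 4 and 5 in diploid MMS, 2 up in diploid NT against haploid NT, and 1 and 7 with MMS in both. With the culture as a replicate block they were 4 up and 24 down in haploid MMS and 6 up and 16 down in diploid MMS, with 1 DEG among the 16. With spike-in scaling 7 fell in haploid MMS, all 7 as DEGs, 0 rose and 0 fell in diploid MMS with 0 DEGs upward, 121 rose (116 as DEGs) and 0 fell in diploid NT, and 156 rose (156 as DEGs) in diploid MMS against haploid MMS; the medians were -0.695 in haploid MMS, 0.769 and 1.39 between ploidies without and with MMS, and 0.655 for the interaction. With the length trend removed per library, which by construction sets the long genes to a median near 0, 3 rose and 0 fell in haploid MMS (0 DEGs downward), 3 rose and 0 fell in diploid MMS, 2 rose and 4 fell as DEGs in diploid NT, and the medians were -0.0104 in haploid and 0.0329 in diploid MMS, with a difference from the CPM-nearest genes of -0.0278 in haploids. Against genes nearest in CPM per kb that difference was -0.0428. At 6000 bases or more the median in diploid NT was -0.125. Of the subsets chosen after seeing the data, the genes with a coding share under 50% had 0.00207 in diploid NT and 0.0261 with MMS in both, and those with under 20% of bases shared had 0 down in diploid MMS.

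Leaving out each library in turn gave, in haploid MMS, 0 to 1 up, 0 to 12 down, 0 to 3 DEGs downward, a median of -0.155 to -0.0903 and a difference from the CPM-nearest genes of -0.202 to -0.0969. In diploid MMS it gave 0 to 3 up, 0 to 7 down, 0 to 2 DEGs upward and 0 to 3 downward, -0.136 to -0.0228 and -0.16 to -0.0383. In diploid NT it gave 0 to 2 up, 2 to 31 down, 2 to 12 DEGs downward, -0.0928 to -0.0391 and -0.111 to -0.0487. With MMS in both it gave 0 to 5 down, -0.0773 to -0.0152 and -0.0842 to -0.00993. The interaction had a median of -0.00145 to 0.143 and a difference of 0.00342 to 0.141. The cause was not tested. The median count of the long genes was 3036 reads in the lowest library, but 3 had fewer than 100 reads in at least 1 library, *prp17+* with 22 to 61, *peg1+* with 25 to 70 and *ams1+* with 35 to 107, which limits the precision of their values.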
